A study of Mus musculus with 2 samples.

Results

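The genes of brain blood vessels were followed here in central nervous system tissue of mouse embryos at embryonic day 14. The set holds 38 listed genes of 43346 in the deposited gene tables, and all 38 were matched by symbol. The genes were chosen by name, with earlier results of these data known. The set has 3 groups: 16 general endothelial genes, 8 angiogenic genes and 14 barrier genes. The study has 1 group of 2 biological replicates of strain C57BL/6J, with no other genotype, treatment or age. Per the labels, each replicate is a biosample of its own that pools male and female littermates, and both carry the same donor identifier. Nothing was sorted or dissected further per the labels, so the vessels were measured together with every other cell of the tissue. Poly(A)+ RNA of over 200 nucleotides was sequenced in pairs, with the strand kept.

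Endothelial cells line all blood vessels and are recognised by surface proteins such as Pecam1 and Cdh5, by receptors for vascular endothelial growth factors (VEGF) and angiopoietins, and by transcription factors of the ETS and SoxF families. Vessels grow into the embryonic brain from its surface under VEGF made by neural progenitors, while Wnt7 ligands from the same progenitors act through Reck, Adgra2 and frizzled receptors to switch on barrier properties. A brain endothelial cell then seals its junctions with Cldn5, carries glucose, lipids and amino acids on dedicated transporters, and loses Plvap, the protein of fenestral diaphragms in leaky vessels.

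The genes of the 2 replicates held 99528934 and 134760822 expected counts, of which the 38 members took 0.150% and 0.140%. Replicate 1 stood apart from replicate 2 by RNA of other tissues: 6 skeletal muscle markers, led by Actc1 and Mylpf, summed to 567 and 10.8 TPM (transcript abundance per length, scaled to the same total in each library), and 6 markers of skin and other epithelia, led by Krt5 and Krt14, to 108 and 15.7 TPM. Markers of the labelled tissue were abundant in both, with sums of 3459 and 3712 TPM over 5 neuronal genes, led by Tubb3 and Gap43, and of 1947 and 2193 TPM over 6 radial glia genes, led by Vim and Fabp7. None of the 10 marker lists had a member at 0 counts in both replicates. In bulk tissue, fewer cells of a type and less RNA per cell cannot be told apart. With 2 libraries of 1 group there is no test between conditions, so values are given for replicates 1 and 2 in that order, as mean ± SD with n = 2, and no p-value was computed.

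Several members make more than 1 product, and the sequences on which those products differ are shown first. The exons below are coding exons that transcripts either include or skip. They were read from the GENCODE M21 transcripts on mm10, 5′ to 3′ on the sense strand, in lower case throughout. In Vegfa, the main VEGF ligand, the exon of 132 bases at chr17:46020991-46021122 (minus strand) is left out of the short diffusible form, and the one of 72 bases at chr17:46022277-46022348 is kept in the longest, most matrix-bound form.
Vegfa 132-base exon: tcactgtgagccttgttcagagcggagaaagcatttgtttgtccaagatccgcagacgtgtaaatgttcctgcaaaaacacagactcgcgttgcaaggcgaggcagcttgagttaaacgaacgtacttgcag
Vegfa 72-base exon: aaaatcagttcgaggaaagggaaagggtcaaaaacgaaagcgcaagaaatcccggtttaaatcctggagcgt
In Tjp1, which encodes the scaffold protein ZO-1 of tight junctions, the exon of 240 bases at chr7:65314093-65314332 (minus strand) adds 80 codons known as the alpha motif.
Tjp1 240-base exon: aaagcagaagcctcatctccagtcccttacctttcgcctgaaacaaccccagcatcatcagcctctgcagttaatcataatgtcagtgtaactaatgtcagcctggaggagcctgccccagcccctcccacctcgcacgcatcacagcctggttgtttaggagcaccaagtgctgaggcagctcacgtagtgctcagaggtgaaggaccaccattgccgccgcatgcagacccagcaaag
In Pecam1, an adhesion protein of endothelial junctions, the exons of 57 bases at chr11:106671742-106671798 and of 23 bases at chr11:106662002-106662024 (minus strand) encode parts of the cytoplasmic tail.
Pecam1 57-base exon: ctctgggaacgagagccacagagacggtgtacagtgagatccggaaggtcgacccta
Pecam1 23-base exon: atctcatggaaaacagatactct
Egfl7, a protein that endothelial cells secrete into their matrix, hosts a microRNA in an intron, and its mature form is shown with the seed (bases 2 to 8) in capitals. RefSeq places it at chr2:26591402-26591423 (plus strand) on GRCm38.p6, the assembly of mm10.
mmu-miR-126a-3p: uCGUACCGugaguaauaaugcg

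Of the 38 members, 37 had a mean of at least 1 TPM, the level called detected here, against 65.2% of the 21474 protein-coding genes. The exception was Esm1, a proteoglycan of vessel tips, at 0.88 and 0.78 TPM from 106 and 126 counts. The members were chosen with earlier results of these data known, which limits the comparison with all protein-coding genes. The highest member was Vegfa at 171.64 and 193.22 TPM, followed by Egfl7 at 163.97 and 141.46 TPM. Both stood above 95% of protein-coding genes (percentiles 96.6 and 95.8), while most of the set lay in the middle of the range. Slc2a1, Cldn5 and Slc3a2 came next, and their means of 79.1 ± 10.3, 77.4 ± 2.55 and 76.8 ± 2.99 TPM (SD, n = 2) differed by less than the spread between replicates.

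**Figure D1:**
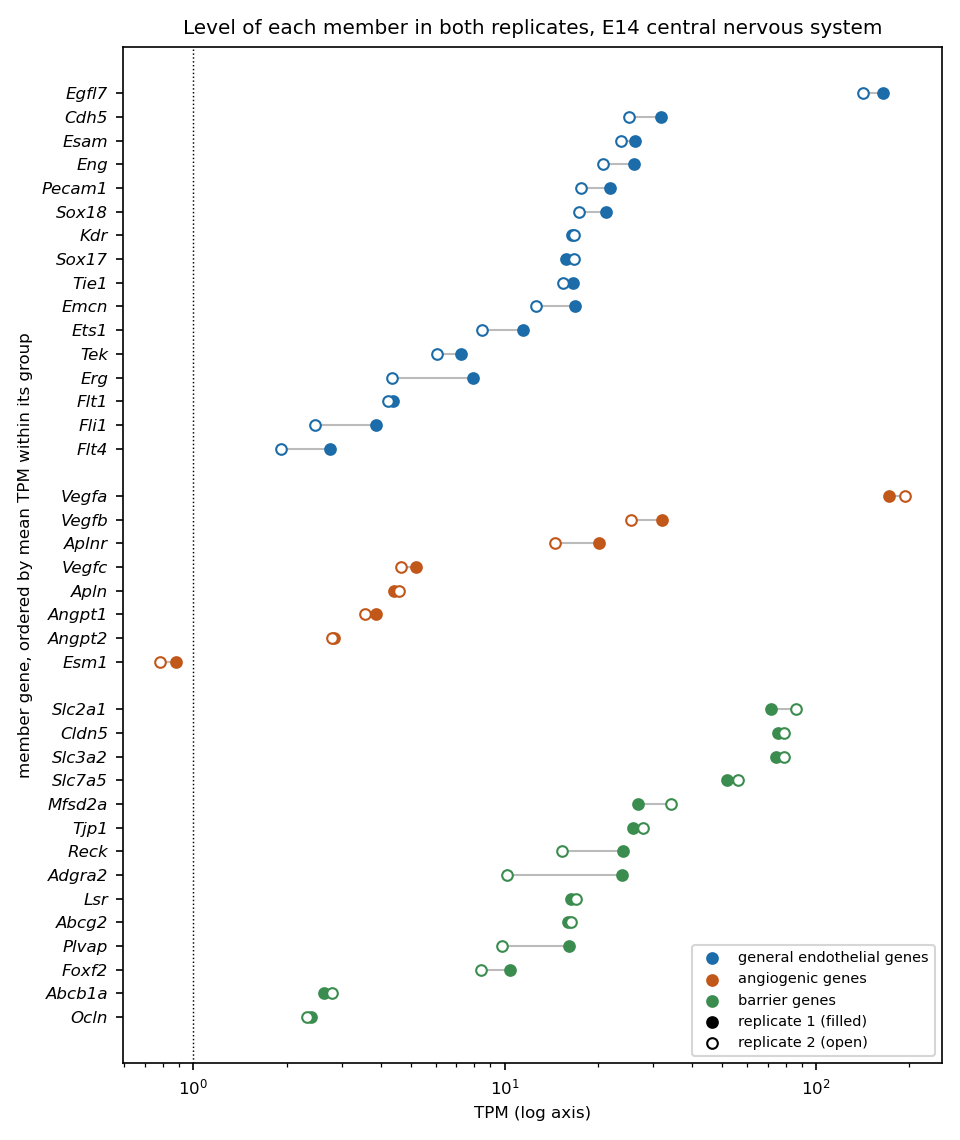
TPM on a log axis (horizontal) of each of the 38 members (vertical), in replicate 1 (filled) and replicate 2 (open), coloured by group. The dotted line marks 1 TPM, and Esm1 is the member below it; Adgra2 has the widest gap between its points, at 23.90 and 10.15 TPM.

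The groups were compared by their medians. The median general endothelial gene stood at 16.6 and 16.0 TPM, the median barrier gene at 24.0 and 16.6 TPM, and the median angiogenic gene at 4.80 and 4.61 TPM. Angiogenic genes were thus the lowest group in both replicates. On the log2(TPM + 1) scale, which understates differences of low genes, the general endothelial median exceeded the angiogenic one by 1.60 and 1.60. The barrier median exceeded the angiogenic one by 2.11 and 1.65, a mean of 1.88 ± 0.32 (SD, n = 2). Between general endothelial and barrier genes the difference was -0.51 and -0.05, a mean of -0.28 ± 0.33, so that it was smaller than the spread between replicates.

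The order of those last groups depended on which members were counted. A list of members that other cells are known to express held 14 of the 38, among them Slc2a1, Slc7a5, Slc3a2, Tjp1 and Reck in the barrier group. With those 14 left out, 15 general endothelial and 6 barrier genes remained, with medians of 16.6 and 16.6 TPM and of 16.0 and 13.0 TPM. The general endothelial median then exceeded the barrier median by 0.05 and 0.37 on the log2(TPM + 1) scale, the reverse of the order over all members. Eng and Foxf2, which fibroblasts or pericytes also express, were not on that list. With them left out too, the difference was 0.04 and -0.02, so that the order of the groups differed between replicates. Only 3 angiogenic genes remained (Angpt2, Aplnr and Esm1), with medians of 2.82 and 2.79 TPM, and they were still the lowest group.

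**Figure D2:**
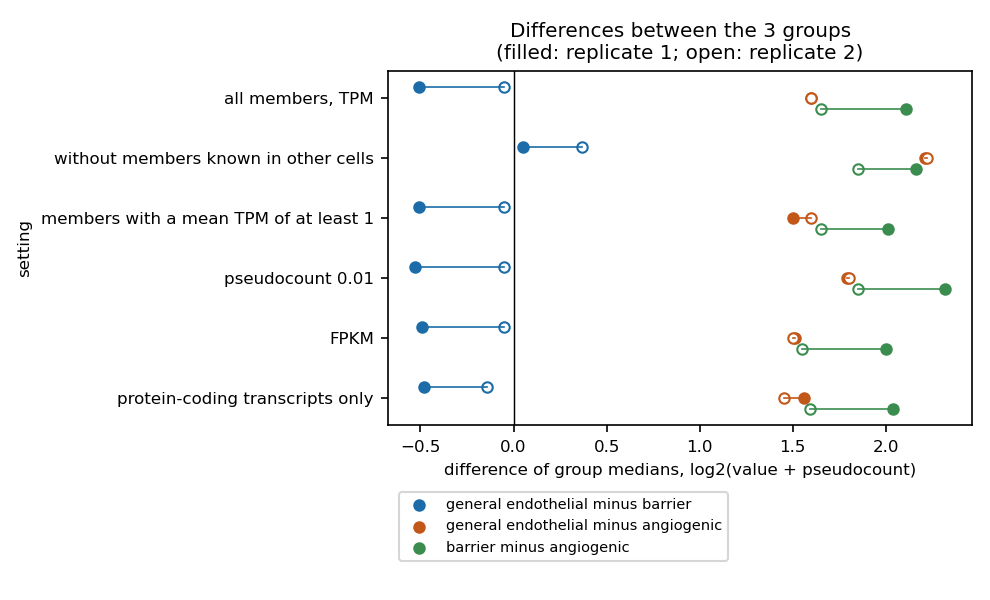
Difference of group medians (horizontal, log2 of value plus pseudocount) for the 3 pairs of groups under 6 settings (vertical), with replicate 1 filled and replicate 2 open. General endothelial minus barrier lies at -0.51 and -0.05 with all members and at 0.05 and 0.37 without members known in other cells, while both differences against angiogenic genes stay above 0.

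The 5 surface and junction proteins of endothelium had a narrow range. Cdh5, the cadherin of endothelial junctions, stood at 31.89 and 25.06 TPM. Eng, a co-receptor for transforming growth factor beta, stood at 26.06 and 20.78 TPM, and Esam, an adhesion molecule of tight junctions, at 26.23 and 23.60 TPM. Pecam1 at 21.85 and 17.54 TPM and the sialomucin Emcn at 16.82 and 12.66 TPM were the lowest of the 5. All 5 were lower in replicate 2, with intervals of the quantifier that did not overlap. The same held for 25.9% of genes with a mean count of at least 200. These intervals were deposited with the TPM, at a level that the sources used here do not state, and cover the uncertainty of the estimate within 1 library only.

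Among the VEGF receptors, Kdr, which carries most of the VEGF signal in endothelium, was the highest at 16.51 and 16.65 TPM. Flt1, which binds VEGF tightly and acts largely as a decoy, stood at 4.38 and 4.21 TPM, and Flt4, the receptor for Vegfc, at 2.75 and 1.91 TPM. The log2 ratio of Flt1 over Kdr was -1.91 and -1.98, so both replicates placed the decoy well below the signalling receptor. Of the angiopoietin receptor pair, Tie1, the partner without a known ligand of its own, stood at 16.63 and 15.44 TPM and Tek, which binds angiopoietins, at 7.24 and 6.06 TPM. The log2 ratio of Tek over Tie1 was -1.20 and -1.35.

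Transcription factors of endothelium were present at lower levels than the surface proteins, with a median of 11.5 and 8.49 TPM. The SoxF factors led: Sox18 stood at 21.11 and 17.37 TPM and Sox17, which marks arterial endothelium, at 15.70 and 16.67 TPM. The ETS factors followed, with Ets1 at 11.47 and 8.49 TPM, Erg at 7.93 and 4.36 TPM and Fli1 at 3.87 and 2.46 TPM. In Sox18 and all 3 ETS genes replicate 2 was lower and the intervals did not overlap, while for Sox17 they did. Replicate 2 was lower with intervals apart for 25.9% of genes with a mean count of at least 200.

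Of the angiogenic ligands, Vegfa exceeded Vegfb, a ligand of Flt1, by a log2 ratio of 2.42 and 2.92. Counting only protein-coding transcripts, the log2 ratio was 1.11 and 1.63. Vegfb stood at 32.10 and 25.48 TPM. Vegfc, the ligand of Flt4, stood at 5.20 and 4.63 TPM, with overlapping intervals. The angiopoietins were low and close to each other: Angpt1, which activates Tek, at 3.87 and 3.56 TPM and Angpt2, which opposes it in many settings, at 2.82 and 2.79 TPM. The log2 ratio of Angpt2 over Angpt1 was -0.46 and -0.35, or -0.40 ± 0.07 (SD, n = 2). In the apelin pair the receptor Aplnr, at 20.10 and 14.50 TPM, stood above its ligand Apln, at 4.41 and 4.58 TPM.

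The junction proteins of the barrier spanned a wide range. Cldn5, the main claudin of brain endothelium (chr16:18776847-18778262, plus strand, mm10), stood at 75.60 and 79.21 TPM from 5823 and 8180 counts. Tjp1 stood at 25.77 and 27.85 TPM and Lsr, a protein of contacts between 3 cells, at 16.37 and 16.95 TPM. Ocln, the tight junction protein occludin, was lowest at 2.39 and 2.32 TPM, and the log2 ratio of Tjp1 over Ocln was 3.43 and 3.59. Of these 4, the intervals of Cldn5 alone did not overlap, with replicate 2 higher, against 29.2% of genes with a mean count of at least 200.

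The 6 transporters of the barrier ranged from near the top of the group to near its bottom. The glucose transporter gene Slc2a1 stood at 71.82 and 86.35 TPM, and Mfsd2a, a lipid transporter that also limits vesicle transport across brain endothelium, at 26.93 and 34.29 TPM. Slc3a2 and Slc7a5, the heavy and light chains of the large neutral amino acid transporter, stood at 74.65 and 78.88 TPM and at 51.78 and 56.45 TPM. The efflux pumps were lower, with Abcg2 at 15.94 and 16.30 TPM and Abcb1a, the P-glycoprotein of mouse brain vessels, at 2.62 and 2.79 TPM. The log2 ratio of Abcg2 over Abcb1a was 2.61 and 2.55. Some reads of Abcb1a may be shared with its related neighbour Abcb1b, so its level is uncertain to an extent not measured here.

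Plvap, the gene that barrier vessels lose, was detected at 16.10 and 9.78 TPM. Its log2 ratio over Cldn5 was -2.23 and -3.02, a mean of -2.62 ± 0.56 (SD, n = 2), so Cldn5 was the higher in both replicates. The labels do not separate vessels with and without a barrier, so the ratio averages over both. The Wnt7 receptor parts Reck and Adgra2 stood at 24.10 and 15.24 TPM and at 23.90 and 10.15 TPM, and Foxf2, a forkhead factor of brain vessels and their pericytes, at 10.37 and 8.42 TPM.

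The replicates differed by role. Over all members the median log2 ratio of replicate 2 over replicate 1 was -0.16 on counts scaled by the trimmed mean of M-values (TMM), against 0.02 over the 14340 genes with a mean count of at least 200. Of the 38 members, 25 lay below 0, against 45.5% of those genes. By group, 14 of 16 general endothelial, 6 of 8 angiogenic and 5 of 14 barrier genes were below 0, with median log2 ratios of -0.28, -0.16 and 0.05. The quantifier's intervals lay apart, with replicate 2 lower, for 19 members, against 25.9% of all genes, and with replicate 2 higher for 5, against 29.2%. Of the 19, 13 were general endothelial, 2 angiogenic (Vegfb and Aplnr) and 4 barrier genes, and the 5 were Vegfa, Cldn5, Slc2a1, Mfsd2a and Slc3a2.

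Within the barrier group the roles moved apart. None of the 6 transporters had a log2 ratio below 0, against 45.5% of genes with a mean count of at least 200. Their median was 0.17, with Mfsd2a at 0.38, Slc2a1 at 0.27 and Abcg2 lowest at 0.00. The 6 radial glia markers moved the same way, all above 0 with intervals apart and a median log2 ratio of 0.22. Intervals lay apart with replicate 2 higher for 29.2% of genes with a mean count of at least 200. Of the 6 macrophage and microglia markers, 5 also lay above 0, with a median of 0.19. Slc2a1, Slc7a5 and Slc3a2 are known in progenitors as well, and the part of radial glia in these ratios was not tested. The 4 junction proteins lay between -0.07 and 0.08. Adgra2 at -1.20, Plvap at -0.71, Reck at -0.68 and Foxf2 at -0.30 were all lower in replicate 2 with intervals apart. Adgra2 was the single member at least 2-fold lower, against 3.95% of all genes, and no member was at least 2-fold higher, against 0.286% of all genes. Among the general endothelial genes the lowest log2 ratios were those of Erg at -0.89, Fli1 at -0.74 and Flt4 at -0.53, and those of Kdr at 0.01 and Sox17 at 0.14 were the only ones above 0.

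Markers of other cells were also unequal. The 8 genes of fibroblasts and meninges summed to 1280 and 531 TPM, with Col1a2 at 332.23 and 142.09 TPM and Col3a1 at 338.79 and 120.82 TPM. At least 2-fold lower in replicate 2 were 6 of the 8, against 3.95% of genes with a mean count of at least 200. The 9 mural cell genes summed to 172 and 110 TPM with a median log2 ratio of -0.58, but in opposite directions for the highest 2: Acta2 stood at 62.38 and 19.49 TPM and Rgs5 at 21.13 and 26.14 TPM. The 7 red blood cell genes, led by Hba-a2 and Hbb-bs, summed to 12457 and 6353 TPM. The 4 lymphatic endothelium genes, led by Pdpn and Prox1, summed to 41.7 and 38.3 TPM. Their log2 ratios were unlike, with 2 below 0 and 2 above, from -3.16 for Ccl21a (5.85 and 0.63 TPM) to 0.38 for Prox1. The 6 genes of macrophages and microglia, led by C1qb and C1qc, summed to 71.8 and 82.8 TPM. The 5 choroid plexus genes summed to 1074 and 1487 TPM, which was the rise of Ttr from 999.48 to 1422.22 TPM: Otx2 stood at 38.06 and 34.91 TPM, 3 of the 5 were lower in replicate 2, and the median log2 ratio was -0.11. Fibroblasts or mural cells are known to express Adgra2, Reck, Eng and Angpt1 as well. Without these 4, picked after the data were seen, the median log2 ratio of the members was -0.15 and 21 of 34 lay below 0. Foxf2, which pericytes also express, stayed in at -0.30. Leaving out so few genes can shift a median only little, and the part of other cells in the differences was not tested.

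**Figure D3:**
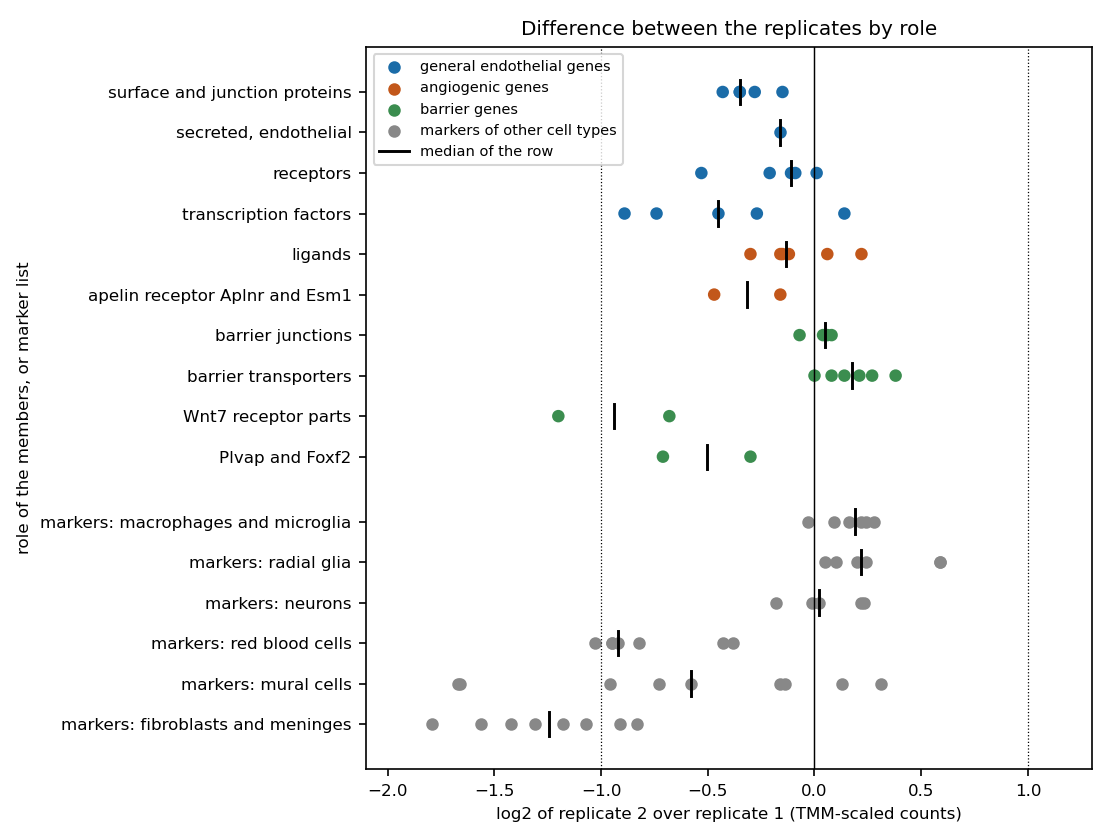
Log2 of replicate 2 over replicate 1 (horizontal) for the 38 members by role and for 6 of the 10 marker lists of other cells (vertical), each point a gene and each bar the median of its row. Not drawn are skeletal muscle, with a median of -6.18, skin and other epithelia at -2.26, lymphatic endothelium at -0.04 and choroid plexus at -0.11. Dotted lines mark a 2-fold difference; the 6 barrier transporters lie at or above 0, Adgra2 lies beyond the left line at -1.20, and the fibroblast and meninges markers have a median of -1.25.

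Partner genes outside the set were taken from 5 lists and described with the same measures. For their counts of detected genes, the share over all protein-coding genes was 65.2%. Of 7 partners of the VEGF, angiopoietin and apelin systems, 6 were detected: the co-receptors Nrp2 and Nrp1 stood at 50.30 and 45.34 TPM and at 27.77 and 25.73 TPM, the ligand Pgf at 4.97 and 3.13 TPM, and Angpt4 was lowest at 0.21 and 0.05 TPM. The co-receptors of Kdr were thus higher than Kdr itself in both replicates, although neurons are known to express both. All 11 genes of Wnt7 and norrin signalling to vessels were detected. Ctnnb1, which encodes beta-catenin, stood at 252.38 and 253.50 TPM, the Wnt inhibitor gene Apcdd1 at 88.67 and 81.35 TPM and the ligand Wnt7b at 27.33 and 45.35 TPM, while the frizzled receptor Fzd4 was lowest at 3.70 and 1.78 TPM. On the log2 scale Wnt7b was 0.73 higher and Fzd4 1.05 lower in replicate 2 (ratio -1.05). Reck and Adgra2, partners of Fzd4, were also lower. The other receptor parts of the list differed less, with Lrp5 at -0.54, Lrp6 at -0.08 and Tspan12 at 0.10.

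All 12 genes of endothelial Notch signalling and of arteries and veins were detected, with a median log2 ratio of -0.06. The venous factor Nr2f2 stood at 81.75 and 76.13 TPM, the arterial ligand Efnb2 at 52.82 and 70.57 TPM and the Notch target Hey1 at 25.86 and 32.49 TPM, and these 3 are also known in neural cells. The arterial connexin gene Gja5 was lowest at 4.28 and 1.69 TPM. Of 18 other endothelial genes, 17 were detected, against 65.2% of protein-coding genes. A log2 ratio below 0 was found for 16 of the 18, against 45.5% of genes with a mean count of at least 200. The median over the 18 was -0.22, close to that of the general endothelial members. Ramp2, a receptor partner for adrenomedullin, led at 67.20 and 52.55 TPM, with the haematopoietic and endothelial factor gene Lmo2 at 29.12 and 31.55 TPM and Cd34 at 33.20 and 21.97 TPM. Etv2, a factor of the first endothelial progenitors, rested on 2 counts in each replicate. Of 22 other junction and barrier genes all were detected, led by Lrp8, Spock2 and Jam3, and the transporter gene Slco1a4 was lowest at 0.83 and 1.53 TPM. In that list 14 of 22 log2 ratios lay below 0, against the 45.5% given above, with a median of -0.08.

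Transcripts of the members were read from the deposited transcript tables, which give each transcript's percent of the gene's TPM. In 10 members a single transcript held 100% in both replicates. Cdh5, Sox18, Cldn5, Plvap, Vegfc, Angpt1, Apln, Esm1 and Foxf2 had only 1 listed transcript each, so their share could only be 100%. Aplnr alone of the 10 had a second one. The fixed shares also enter the counts and the median that follow. The leading transcript held at least 90% on average in 18 members and under 50% in 7, with a median of 89.2% over all 38. Flt1 divided into a long form of 1333 codons with the kinase, Flt1-202, at 61.05% and 56.01%, and a short form of 688 codons, Flt1-203, at 38.95% and 41.85%. Flt1 is known to make a secreted form without the kinase. In TPM the long and short forms stood at 2.68 and 2.36 and at 1.71 and 1.76. The leading transcript changed between replicates in 3 members (Erg, Sox17 and Vegfa), and 4 Erg transcripts, with 45.9% and 38.8% of its TPM together, had no name in GENCODE M21.

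In 3 members over 20% of the TPM in both replicates lay in transcripts annotated as retained introns, which encode no protein. Neither this count nor those of leading transcripts was made over all genes, so whether they are usual is not known. For Vegfa this share was 61.2% and 60.3%, but 21.5% and 20.7% of its counts, since these transcripts are short. The protein-coding transcripts of Vegfa summed to 66.7 and 76.8 TPM and those of Egfl7, with 37.5% and 36.6% in retained introns, to 96.6 and 86.1 TPM. By coding TPM Vegfa therefore stood below Egfl7 in both replicates, the reverse of the order by gene TPM. That order rests on Egfl7-211, annotated as coding with only 79 codons, at 31.81 and 29.66 TPM. Without it Egfl7 would stand below Vegfa in both replicates. In Abcb1a the retained-intron share was 41.5% and 26.3%, which left 1.53 and 2.06 TPM in its coding transcript.

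The microRNA in Egfl7 is too short for these libraries, and its gene Mir126a (73 bases) was listed at 0 counts in both replicates. Next to it, however, lie annotated Egfl7 transcripts that begin just after the hairpin, which ends at chr2:26591429. Egfl7-211 starts after a gap of 4 bases and held 19.40% and 20.97% of the Egfl7 TPM, and Egfl7-214 starts after a gap of 16 bases and held 18.05% and 18.11%. With Egfl7-208, which held 0.06% in replicate 2, transcripts that begin there summed to 61.4 and 55.4 TPM, or 37.5% and 39.1% of the gene. These shares are estimates over overlapping annotated transcripts and do not show where an RNA begins.

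For members with several start sites, transcripts beginning within 100 bases of each RefSeq start were added up. Of 3 Egfl7 sites, numbered along the gene, site 1 took 1.2% and 1.1% of the TPM, site 2 26.2% and 27.4% and site 3 12.7% and 11.8%, with the remaining 59.9% and 59.7% in transcripts beginning elsewhere. Of 3 Abcg2 sites, site 1 was listed at 0, site 2 took 37.5% and 37.8% and site 3 51.9% and 50.8%. The 250 bases before the RefSeq starts with the larger shares are shown for both genes, on GRCm38.p6 (plus strand). In Abcg2 these 2 sites took most of the TPM, while in Egfl7 most of it lay in transcripts beginning elsewhere. Capitals mark the letters AGGAAG or their reverse complement CTTCCT, a common form of the ETS binding motif, searched on both strands.
Egfl7 start 2, chr2:26583615-26583864: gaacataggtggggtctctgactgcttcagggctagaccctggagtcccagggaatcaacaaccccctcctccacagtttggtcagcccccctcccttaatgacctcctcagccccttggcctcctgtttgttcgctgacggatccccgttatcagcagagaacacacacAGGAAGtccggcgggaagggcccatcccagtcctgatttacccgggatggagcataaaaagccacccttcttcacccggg
Egfl7 start 3, chr2:26586386-26586635: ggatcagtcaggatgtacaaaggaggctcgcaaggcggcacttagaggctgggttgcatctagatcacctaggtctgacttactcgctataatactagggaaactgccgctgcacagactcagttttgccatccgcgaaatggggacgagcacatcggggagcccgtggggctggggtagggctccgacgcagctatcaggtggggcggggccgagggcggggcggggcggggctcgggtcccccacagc
Abcg2 start 2, chr6:58596422-58596671: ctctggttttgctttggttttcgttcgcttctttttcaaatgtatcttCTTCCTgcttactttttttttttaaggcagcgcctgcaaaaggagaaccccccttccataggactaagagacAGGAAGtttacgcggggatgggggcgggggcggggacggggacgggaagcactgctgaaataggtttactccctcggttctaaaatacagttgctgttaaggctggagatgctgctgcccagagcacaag
Abcg2 start 3, chr6:58640296-58640545: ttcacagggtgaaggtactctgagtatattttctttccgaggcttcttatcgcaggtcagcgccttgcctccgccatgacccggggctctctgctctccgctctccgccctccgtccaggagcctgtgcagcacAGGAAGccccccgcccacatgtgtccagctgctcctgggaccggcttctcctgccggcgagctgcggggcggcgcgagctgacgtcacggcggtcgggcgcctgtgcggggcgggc
Egfl7 start 2, the more used of the 2 shown, has 1 match, 80 bases before the start. The window of start 3 has none, while the Abcg2 starts have 2 matches and 1. RefSeq promoters were found for 25 of the 38 members, with 33 windows in all. The motif was in 13 of the 33, against 29.5% of 32851 promoter windows of the same length. ACAATG, a SoxF motif form, was in 2 against 10.7%, and CTTTGA, the core of the motif bound by the nuclear partners of beta-catenin, in 6 against 13.8%. A match is a run of letters and shows no binding.

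Splice junction reads gave a second measure of the exons shown above. These counts were deposited on mm9 in 2 fields that no label ties to the numbered replicates, so they were pooled, and intervals are exact 95% binomial intervals for counting error only. Inclusion was the mean of the reads into and out of an exon, as a percent of that mean plus all reads passing over the exon. It was computed for 15 exons in 9 members, those with at least 20 reads over both inclusion junctions and over a skipping junction, and exons were matched to mm10 by gene and length. The 132-base exon of Vegfa was included in 66.5% (64.9% to 68.0%, with 1784 reads in, 3188 out and 1255 passing over). Its 72-base exon was included in 1.68% (1.25% to 2.21%). Reads joined the exon before them directly to the 132-base exon 1725 times and passed both 1249 times, so the most frequent path carried the longer exon without the shorter, the structure of the intermediate form. Transcript TPM gave 57.2% and 69.8% for the 132-base exon and 1.7% and 1.8% for the 72-base exon. Here and for the other exons, this measure counted only protein-coding transcripts that span the exon. Retained-intron transcripts were left out, with 61.2% and 60.3% of the TPM of Vegfa and 37.5% and 36.6% of that of Egfl7. Some of them span these exons, so the closeness to the junction reads depends on that choice.

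For 4 of the 15 exons the measures lay over 15 percentage points apart. The widest gap was in Emcn, where a 39-base exon was included in 90.6% by junction reads (87.9% to 92.9%) but took 30.2% and 28.8% by transcript TPM. The 240-base exon of Tjp1 was included in 5.67% by junction reads (3.67% to 8.32%, with 26 reads in, 22 out and 399 passing over), whereas Tjp1-202, the annotated transcript that holds it, took 45.1% and 44.5% of the TPM of the transcripts spanning it. A 65-base exon of Egfl7 was included in 87.6% against 56.1% and 56.8%, and a 54-base exon of Pecam1 in 82.6%, although all the TPM of transcripts spanning it held it in both replicates. The cause of these gaps was not tested. The form of Tjp1 without the alpha motif is known from endothelium and the form with it from many epithelia, but neural progenitors express Tjp1 too and the reads do not tell the cells apart. For Lsr the measures were close: its 57-base exon was included in 24.9% (21.5% to 28.5%) by junctions and in 27.1% and 25.4% by transcript TPM.

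**Figure D4:**
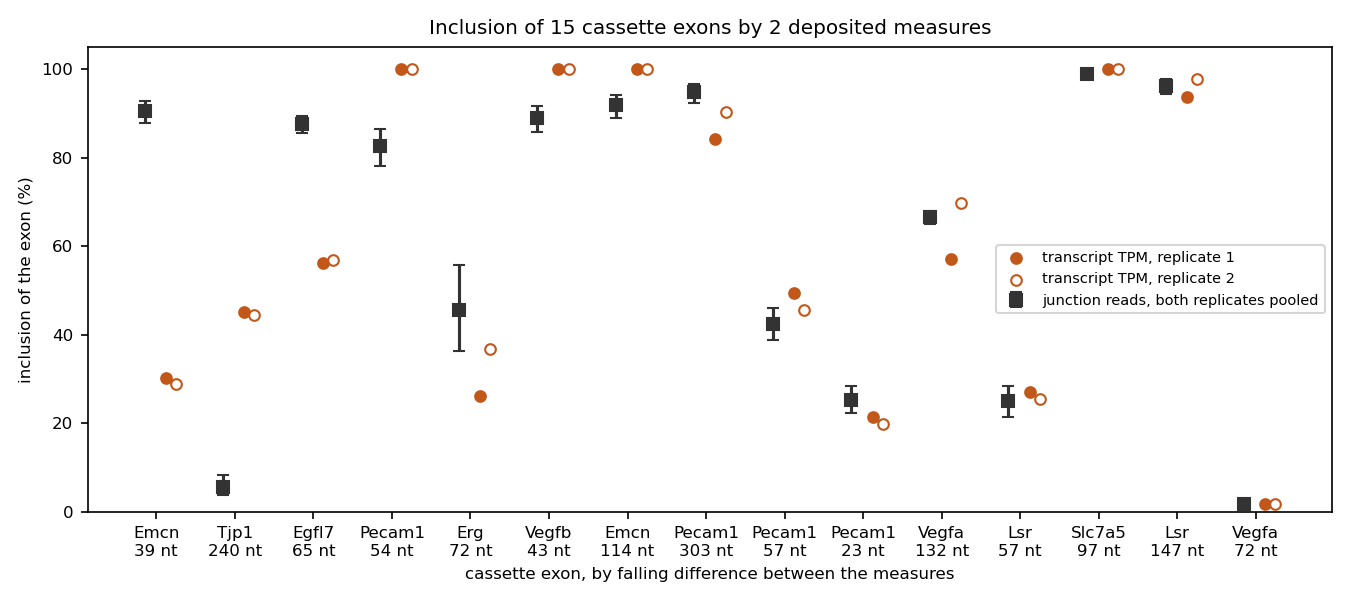
Inclusion in percent (vertical) of 15 cassette exons (horizontal, by falling difference between the measures). Squares are mm9 junction reads pooled over both replicates, with exact 95% intervals. Circles are the TPM of protein-coding mm10 transcripts that span the exon, in replicate 1 (filled) and replicate 2 (open). The measures lie far apart for the Emcn exon of 39 bases, at 90.6% against 30.2% and 28.8%, and for Tjp1, and close for both Vegfa exons and for Lsr.

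In Pecam1, reads from the exon before the 57-base exon ran into it 237 times, passed directly to the 23-base exon 46 times and passed both 376 times. Passing both was thus the most frequent path, and Pecam1-203, which lacks both exons, was the leading transcript at 49.21% and 53.84% of the TPM. Over all paths the 57-base exon was included in 42.5% (38.9% to 46.1%) and the 23-base exon in 25.3% (22.4% to 28.4%). The 72-base exon of Erg was included in 45.6% (36.3% to 55.7%, with 45 reads in, 54 out and 59 passing over), and in 26.2% and 36.8% by the TPM of its named coding transcripts.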

How the data were processed

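The members and gene lists were chosen with earlier results of these data known. The authors deposited expected counts (estimates that need not be whole), TPM and FPKM per gene and transcript on mm10 with GENCODE M4, and each transcript's percent of its gene's TPM, per the file headers and the text beside them. On mm9 they deposited RPKM of Ensembl release 65 genes and splice junction read counts, in 2 fields, per the file contents. The quantifier and the aligner: not given in the sources used here. Symbols came from GENCODE M21 by stable identifier. Members were called detected at a mean of 1 TPM, and groups were compared on log2(TPM + 1). Ratios between replicates used expected counts, rounded to integers and scaled with edgeR 4.0.16 (TMM, prior count 1) in R 4.3.3 and tested on simulated data; DESeq2 1.42.0 gave alternative size factors. With 1 library a replicate, no p-value was computed. A count of 0 allows 3 counts, or 0.0301 and 0.0223 CPM. Intervals and floors cover counting error only, since reads are not independent molecules. All 38 members may be named, with the 3 highest and the lowest of each of 5 pathway lists and the 2 highest of each of 10 marker lists; other names were chosen after their values were seen. Other steps ran in Python 3.11.15 with scipy 1.17.1, numpy 2.4.6, pandas 2.3.3 and matplotlib 3.10.9. Alternatives were other pseudocounts, units, thresholds, scalings and member sets, and each replicate alone.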

Additional observations from a re-analysis of the deposited data

How the results depend on the processing

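No paired analysis was possible because the study has only 1 group. Of 80 values of 11 results under an alternative, 60 kept their direction and moved by less than the spread between replicates, or, for counts, stayed within 1.5 times and, for the median log2 ratio of the members, within 0.1. For group differences and pair ratios, a single replicate always lies within 1 SD of the mean, so it could not count as moved. Within a library FPKM is proportional to TPM, so pair ratios in FPKM could not move either. Such values are among the 60 and say nothing on how stable the results are. The difference of general endothelial minus barrier medians was reversed, from -0.28 to 0.21, without members known in other cells, where 6 barrier genes were left, and to 0.01 without Eng and Foxf2 as well, added after the data were seen. It ranged from -0.51 to -0.05 over single replicates. General endothelial minus angiogenic moved from 1.60 to 1.77 and 1.79 with pseudocounts of 0.1 and 0.01, 1.50 in FPKM, 0.61 in mm9 RPKM, 1.55 for members of at least 1 TPM, 2.21 without members known in other cells, 2.18 without Eng and Foxf2 too and 1.51 by protein-coding transcripts, an alternative added after the data were seen. Single replicates gave 1.60 to 1.60 there, and 1.65 to 2.11 for barrier minus angiogenic, which moved from 1.88 to 0.90 in mm9 RPKM. At 1 RPKM on mm9, 26 members were detected. RPKM ran lower than TPM, with means of 2.33 against 19.7 for Pecam1 and of 20.5 against 153 for Egfl7. A level of 1 RPKM is therefore stricter than 1 TPM, and a pseudocount of 1 shrinks differences more. The count of members at least 2-fold lower in replicate 2 fell from 1 to 0 without members known in other cells or, as added later, without Adgra2, Reck, Eng and Angpt1. Without length, in expected counts, the log2 ratios were -2.05 for Plvap over Cldn5, -0.74 for Angpt2 over Angpt1 and -1.77 for Flt1 over Kdr. In mm9 RPKM the latter were -0.29 and -1.80, and Angpt2 over Angpt1 was -0.48 by protein-coding transcripts. Over single replicates the 3 pairs ranged from -3.02 to -2.23, from -0.46 to -0.35 and from -1.98 to -1.91, and the median leading transcript share from 89.0% to 89.2%. Where a value moved, the cause was not tested.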
